A study of Mus musculus with 16 samples.

Results

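Chromatin accessibility after expression of 9aa-Ins, a human pathogenic GATA2 variant with 9 residues inserted between the zinc fingers, was compared with that after an empty vector in progenitors that lack the -77 enhancer of Gata2. The comparison used 8 of the 16 ATAC-seq libraries of the study, 4 for 9aa-Ins and 4 for the empty vector. Both groups were hematopoietic progenitors from mouse fetal liver, immortalized with an estrogen-regulated HoxB8 and grown with β-estradiol. Both had the genotype hi-77-/- and were isolated by FACS after 3 d with retrovirus. They are named 9aa-Ins and hi-77-/- empty here, after the vector. The remaining libraries were 4 of hi-77-/- cells with GATA2 and 4 of hi-77+/+ cells, in which the enhancer is intact, with the empty vector (hi-77+/+ empty). Their peaks took part in the merging of regions but not in the choice of changed regions. The retroviral vector, not the Gata2 locus, drove the variant, the vector also carried GFP, and the cells stem from lines held as progenitors by HoxB8. The study calls its 4 libraries per group biological replicates, and no source used here says whether they came from separate cultures or infections, so p-values measure the spread between these libraries.

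GATA2 is a zinc finger transcription factor that binds the sequence WGATAR (W is A or T, R is A or G) and is needed to form and maintain hematopoietic stem and progenitor cells. The -77 enhancer raises Gata2 expression in myeloerythroid progenitors. C/EBP factors drive granulocyte and monocyte differentiation, AP-1 factors (FOS and JUN dimers) answer to growth and inflammatory signals, and EBF1 specifies B lineage cells. In ATAC-seq a transposase cuts open DNA, and regions with many cuts are called as peaks.

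Regions were defined from the 49000 most significant peaks per library on chromosomes 1 to 19 and X. Merging them over the 16 libraries gave 90549 regions. Opened regions are those where all 4 9aa-Ins libraries and 0 of 4 hi-77-/- empty libraries had a peak, and closed regions are the reverse. With 9aa-Ins, 1221 regions were opened (1.35% of all regions) and 155 were closed (0.171%), so that 88.7% of the changed regions were opened. A further 29875 regions had a peak in each of the 8, and the height of these shared peaks was compared. Accessibility of a cell population was measured, so more cells with a region open and a region more open in each cell cannot be told apart.

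The sequences under several of these regions are shown first, because the changed regions differed from the others in the short motifs they held. Each is the 120 bp of GRCm38 (mm10) in which the searched motif was found nearest the peak summits, on the plus strand. In the first group capitals mark matches to a C/EBP motif (TTGCNNAA) or an AP-1 motif (TGANTCA) on either strand. The regions near Sem1, Serpine2, Csf3r and Tlr4 were opened, and those near Fos and Cebpe were shared and had higher peaks with 9aa-Ins.
Sem1 (chr6:6496978-6497097): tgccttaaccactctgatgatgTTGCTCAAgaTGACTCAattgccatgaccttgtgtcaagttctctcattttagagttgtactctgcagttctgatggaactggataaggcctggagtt
Serpine2 (chr1:80025951-80026070): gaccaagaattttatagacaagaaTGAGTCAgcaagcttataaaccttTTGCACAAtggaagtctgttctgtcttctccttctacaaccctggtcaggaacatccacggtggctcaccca
Csf3r (chr4:126017789-126017908): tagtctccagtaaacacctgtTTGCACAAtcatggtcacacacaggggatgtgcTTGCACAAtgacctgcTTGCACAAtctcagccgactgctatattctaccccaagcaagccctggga
Tlr4 (chr4:66857130-66857249): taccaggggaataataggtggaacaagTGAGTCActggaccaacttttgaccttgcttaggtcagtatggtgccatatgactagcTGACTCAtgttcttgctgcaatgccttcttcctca
Fos (chr12:85489388-85489507): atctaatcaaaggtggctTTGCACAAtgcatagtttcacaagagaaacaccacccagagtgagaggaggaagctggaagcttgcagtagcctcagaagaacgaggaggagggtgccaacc
Cebpe (chr14:54706063-54706182): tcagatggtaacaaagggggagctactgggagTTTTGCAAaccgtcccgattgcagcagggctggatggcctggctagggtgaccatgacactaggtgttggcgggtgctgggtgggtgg

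In the next pair capitals mark WGATAR. Both regions were opened with 9aa-Ins and also had a peak in 4 of 4 GATA2 libraries.
Gata3 (chr2:9831426-9831545): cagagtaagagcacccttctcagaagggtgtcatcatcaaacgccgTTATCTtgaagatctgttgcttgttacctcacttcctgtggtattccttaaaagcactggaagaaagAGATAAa
Runx1 (chr16:92654001-92654120): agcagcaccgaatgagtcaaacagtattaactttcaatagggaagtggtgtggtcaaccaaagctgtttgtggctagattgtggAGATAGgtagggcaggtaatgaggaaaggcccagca

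In the last sequence capitals mark an EBF motif (CCCNNGGGA), in a shared region that had lower peaks with 9aa-Ins.
Erg (chr16:95428400-95428519): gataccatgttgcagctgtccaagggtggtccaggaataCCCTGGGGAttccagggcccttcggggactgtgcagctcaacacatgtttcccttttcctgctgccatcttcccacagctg

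9aa-Ins replicate 1 stood apart from the other 9aa-Ins libraries. Of 1143 regions found in all hi-77+/+ empty libraries but in no hi-77-/- empty or GATA2 library, it had peaks in 11.6%, and 9aa-Ins replicates 2 to 4 in 2.80% to 3.59%. Of 1000 regions found in all GATA2 libraries but in neither empty group, it had peaks in 12.7%, and the others in 18.2% to 19.6%. Without this library 1622 regions were opened and 299 closed, as the call then asks for 1 library less. The coding exons of Gata2, which the vectors for 9aa-Ins and GATA2 also carry, were covered by peaks over 89.9% to 99.6% of their bases with 9aa-Ins and over 7.64% to 8.75% in the group hi-77-/- empty. In GATA2 libraries it was 46.5% to 73.7% and in hi-77+/+ empty libraries 0% to 32.6%. Read totals were not used here, so depth is unknown. The background pileup per library, which grows with depth, was 0.513 to 0.640 with 9aa-Ins and 0.378 to 0.666 in hi-77-/- empty libraries.

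The full lists of deposited peaks differed in length, and a fixed number was taken from each. The 9aa-Ins libraries held 107594, 104124, 85078 and 70219 peaks on the chromosomes used, and the hi-77-/- empty libraries 67532, 69381, 74292 and 63924. The groups overlapped, since 9aa-Ins replicate 4 lay below hi-77-/- empty replicate 3. Means were 91754 ± 17438 (SD, n = 4) and 68782 ± 4316 (SD, n = 4), a difference of 22972 that did not pass the threshold (two-sided exact permutation p = 0.0571). Without 9aa-Ins replicate 4 the difference was 30150 (exact permutation p = 0.0286), and with peaks restricted to -log10 q values of 5 or more it was 12561 (exact permutation p = 0.0286, the smallest that 4 against 4 libraries allow).

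The fixed number of peaks ended at a different height in each library. The weakest peak kept had a fold enrichment, the pileup at the summit over the background of the library, of 6.10 to 7.57 with 9aa-Ins and 5.40 to 5.80 in hi-77-/- empty libraries. In each of the 8 libraries the last peak inside the list and the first outside it had equal values. A missing peak in a 9aa-Ins library could therefore be higher than a present peak in an empty one, which bears on the closed regions in particular.

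**Figure D1:**
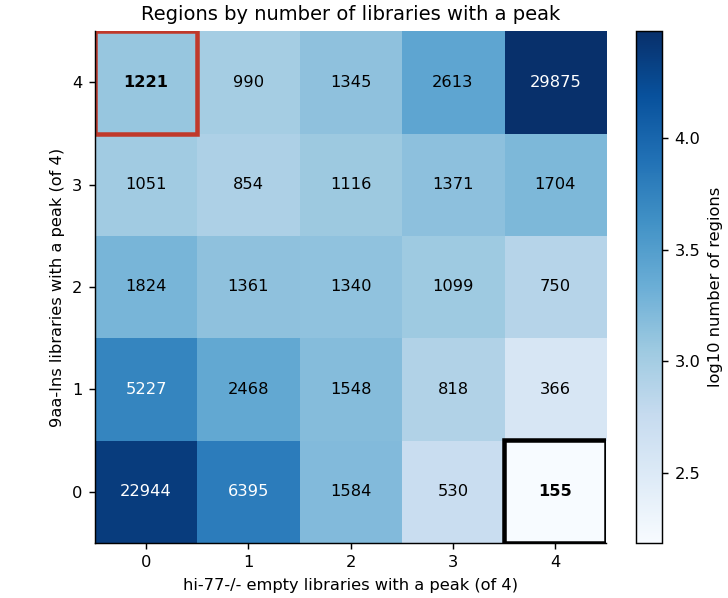
Number of regions by how many of the 4 9aa-Ins libraries (vertical) and of the 4 hi-77-/- empty libraries (horizontal) had a peak, with color on a log10 scale. The 1221 opened regions are framed at the top left and the 155 closed regions at the bottom right, and 29875 regions had a peak in all 8 libraries.

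Opened regions were well above the limit of the lists in the libraries that held them. Their median fold enrichment was 9.15 to 10.5 in the 4 9aa-Ins libraries, and the highest in each library was 22.0 to 27.8. In hi-77-/- empty libraries, 25.7% to 37.3% of the opened regions had a weaker peak among those below the limit, with a median fold enrichment of 4.75 to 5.08. No deposited peak of any height lay in 441 opened regions (36.1%) in any hi-77-/- empty library, and 63 had such a weak peak in all 4. Closed regions were closer to the limit. Their median fold enrichment was 6.60 to 7.26 in hi-77-/- empty libraries, and 154 of the 155 had a weaker deposited peak in at least 1 9aa-Ins library, 72 of them in 4 of 4. These heights chose the regions and are given as a description.

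How far the calls carried over to a library that did not take part was asked by leaving each of the 8 libraries out of the choice in turn. Regions chosen as opened without it had a peak in 82.5% ± 5.20 (SD, n = 4) of cases in a left-out 9aa-Ins library. In a left-out hi-77-/- empty library it was 16.8% ± 2.40 (SD, n = 4). For regions chosen as closed the shares were 36.1% ± 9.11 (SD, n = 4) and 54.0% ± 2.68 (SD, n = 4). The gap between the groups was thus wider for opened than for closed regions, and the highest of the left-out 9aa-Ins values for closed regions, 48.2%, was near the lowest hi-77-/- empty value of 51.7%. Of all 90549 regions, a hi-77-/- empty library had a peak in 43664 to 45033 and a 9aa-Ins library in 45476 to 47670. The 54.0% at closed regions was thus near the share over all regions, so these calls carried over little.

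Opened regions lay mostly away from promoters. Of the 1221, 135 (11.1%) were within 3 kb of a transcription start site (TSS) of a protein-coding gene, against 25.3% of all regions and 41.3% of regions shared by the 8 libraries. The share for closed regions was 12.9%. Opened regions were found on every chromosome used, from 0.993% of the regions of chromosome 8 to 2.05% of those of chromosome 13. Peaks tied at the limit of a list were kept in chromosome order, from chromosome 1 to X. The part of this rule in the shares by chromosome was not tested. They were mostly single: for 1080 of the 1221, the 100 kb from their start held no other opened region. Of the genes nearest to them, 882 had 1 opened region, 71 had 2 and 9 had 3. For these counts a region was assigned to the gene with the nearest TSS within 100 kb, and single regions are named after the nearest TSS at any distance. Neither shows that a region acts on that gene.

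The 10 opened regions of highest median rank had fold enrichments between 15.8 and 27.8 in each 9aa-Ins library. Distances are given from the nearest TSS, with a minus sign upstream of it. In a gene with several TSSs, its regions can be measured from different ones. The region at -89.9 kb from Papss1, whose product makes the sulfate donor PAPS, had fold enrichments of 24.0, 22.2, 23.8 and 21.3 in the 9aa-Ins libraries, no deposited peak in hi-77-/- empty replicates 1 and 2 and weak ones of 4.07 and 4.20 in the others. It also had a peak in 4 of 4 GATA2 and 4 of 4 hi-77+/+ empty libraries, with fold enrichments of 5.82 to 12.3 and 6.62 to 8.20. In a coding exon of Dlst, a subunit of the 2-oxoglutarate dehydrogenase complex, the 9aa-Ins values were 22.1, 27.1, 21.1 and 22.0. Only weak peaks of 4.94 and 5.40 lay there in 2 hi-77-/- empty libraries, and the GATA2 libraries had 12.7 to 14.7. The region at +81.4 kb from Sem1, which encodes a small proteasome subunit, had 20.2, 25.3, 27.8 and 17.7 with 9aa-Ins, and 4.80 to 5.43 in the 3 hi-77-/- empty libraries with a deposited peak. Its GATA2 libraries had 8.46 to 16.4.

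The region at -167 kb from Serpine2, a serine protease inhibitor, was of another kind. Its fold enrichments were 20.2, 17.9, 19.2 and 18.3 with 9aa-Ins. No deposited peak lay there in any of the 8 empty-vector libraries of either genotype, and a single weak one of 3.30 lay there in GATA2 replicate 2. At -4.86 kb from Bcl2l10, an apoptosis regulator of the BCL2 family, inside an intron of Gnb5, the values were 18.3, 21.6, 19.2 and 17.1 with 9aa-Ins and no deposited peak was found in a hi-77-/- empty library. The remaining 5 of the 10 lay near Srd5a3, Slc30a5, Nin, Rmc1 and Klb, of which only that of Nin reached a TSS. The region near Slc30a5 is a tandem repeat in which reads may align to more than 1 copy. Among opened regions within 3 kb of a TSS the highest after Nin were near Pstpip2, Rbm34, Cox7a2 and Tiam1, with fold enrichments of 12.3 to 20.8 in the 9aa-Ins libraries.

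Of the 9 genes with 3 opened regions, Gata2 itself has to be set aside. Its 3 opened regions were coding exons, the sequence of which is also in the vector, so reads from the vector and from the locus cannot be told apart. The other 8 were Ccdc80, Foxp1, Lgmn, Ly6a, Pde4d, Sh3bp5, Slc31a2 and St3gal1. Foxp1, a forkhead transcription factor, had 67 assigned regions and Ly6a, which encodes the stem cell antigen SCA-1, had 5. The 3 regions of Ly6a had fold enrichments of 7.93 to 17.3 in the 9aa-Ins libraries and no deposited peak in any hi-77-/- empty library. The 100-kb windows with most opened regions were at Ccdc80 and Cd200r3 (4 of 9 regions), at Ly6a and Ly6c2 (4 of 14) and at Lgmn and Rin3 (4 of 22).

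Neutrophil genes were among those with opened regions. Over all protein-coding genes with an assigned region, 962 of 17009 (5.66%) had an opened region and 133 (0.782%) a closed one. Of all their assigned regions 1.31% were opened. Of the 20 neutrophil genes with an assigned region, 4 had an opened region, namely Csf3r, Lcn2, Cxcr2 and Stfa1, and 4 of their 85 regions were opened (4.71%). None of the 20 had a closed region, which says little at 0.782% over all genes. At -6.50 kb from Csf3r, the receptor for granulocyte colony-stimulating factor, the 9aa-Ins libraries had fold enrichments of 15.8, 17.3, 13.2 and 12.2. The hi-77-/- empty libraries had no deposited peak in replicate 1 and weak ones of 4.94, 5.43 and 5.40 in the others. All 4 9aa-Ins values were above all hi-77-/- empty values, as the choice of the region fixed. At the TSS of Stfa1, a cysteine protease inhibitor of the stefin family, the 9aa-Ins libraries had 16.4, 16.6, 15.2 and 17.7, and no hi-77-/- empty library had a deposited peak. Stfa1, like Ly6c2 and Mcpt8 named further on, has near-identical copies, so its reads are uncertain. At the TSS of Lcn2, a granule protein that binds bacterial siderophores, they had 9.46, 9.24, 13.2 and 10.4, against 4.94 and 4.20 in 2 hi-77-/- empty libraries. No hi-77+/+ empty library had a peak among the 49000 in any of these 4 opened regions. Without 9aa-Ins replicate 1, 7 regions of neutrophil genes were opened.

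Of 18 monocyte and dendritic cell genes, 5 had an opened region and 1 a closed one. Of their 158 regions 6 were opened (3.80%). Ly6c2, a surface protein of inflammatory monocytes, had 2 opened regions. That at its TSS had fold enrichments of 12.6, 13.6, 13.2 and 10.4 with 9aa-Ins, a single weak peak of 3.60 in a hi-77-/- empty library, and no deposited peak in any GATA2 or hi-77+/+ empty library. The others were near Cd14, a co-receptor for lipopolysaccharide, Csf1r, the receptor for macrophage colony-stimulating factor, Cd74, the invariant chain of class II molecules, and Lyz2, lysozyme. In these the 9aa-Ins libraries had 6.71 to 16.02. The closed region was in an intron of Ly86, the partner of an innate receptor, with 7.26, 8.47, 6.10 and 7.80 in hi-77-/- empty libraries and weaker deposited peaks of 4.31 to 5.95 in all 4 9aa-Ins libraries.

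Innate sensing genes gave 4 of 21 members with an opened region. None had a closed one, which again says little at 0.782% over all genes. Of their 133 regions 5 were opened (3.76%). Tlr4, the receptor for lipopolysaccharide, had opened regions at +24.4 and +29.5 kb, with fold enrichments of 15.1, 17.3, 15.2 and 15.9 in the first and 8.20, 11.7, 9.91 and 11.0 in the second. The second held the pair of AP-1 matches shown above and no deposited peak in any hi-77-/- empty or hi-77+/+ empty library. The others were Tlr2, a receptor for bacterial lipoproteins, Trem1, an amplifier of inflammatory signals on myeloid cells, and Nfkbia, the inhibitor of NF-κB. Mast cell, basophil and eosinophil genes gave 3 of 15, namely Il1rl1, the receptor for IL-33, Fcer1g, a signaling chain of Fc receptors, and Prg3, an eosinophil granule protein. Of the AP-1 and ATF factors 3 of 13 had an opened region (Fosl1, Fosl2 and Batf), and of the C/EBP factors 1 of 6 (Cebpg). By region these were 3 of 144 (2.08%) and 1 of 74 (1.35%), the second near the 1.31% over all genes. For the mast cell, basophil and eosinophil genes it was 3 of 75 (4%). At +2.59 kb from Fosl2 the 9aa-Ins libraries had 15.8, 15.4, 14.5 and 12.2, and a single hi-77-/- empty library had a weak peak of 4.23.

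Lists of other lineages had 0 or 1 gene with an opened region, apart from progenitor factors. Over all genes the share was 5.66%, so 0 or 1 gene does not set lists this short apart. By region it was 1 of 78 (1.28%) for B lymphoid and 1 of 46 (2.17%) for T and NK cell genes. For cytokine receptors and signaling it was 1 of 218 (0.459%), against 1.31% over all genes. None of 16 erythroid and none of 10 megakaryocyte genes had one, and a region at +1.57 kb from Hbb-bt, a β-globin gene, was closed. Of 13 B lymphoid genes Foxo1 had an opened region. An intronic region of Dntt, which encodes terminal deoxynucleotidyl transferase, was closed, with 9.43, 8.47, 7.46 and 9.60 in hi-77-/- empty libraries and weaker deposited peaks of 4.27 to 5.95 in the 4 9aa-Ins libraries. Of 11 T and NK cell genes, Gata3 had an opened region, of 24 genes of cytokine receptors and signaling Ifngr1, a chain of the interferon-γ receptor, and of 12 interferon response genes Mx1 had a closed one. The region at -65.2 kb from Ifngr1 had 18.3, 16.02, 16.5 and 16.5 with 9aa-Ins and 4.20 to 4.94 in 3 hi-77-/- empty libraries. Of 19 progenitor factors Runx1 and Spi1, which encodes PU.1, had opened regions besides Gata2, and Lmo2 a closed one. Of the 290 regions of this list 6 were opened (2.07%), those of Gata2 included. Markers of liver (5 genes with an assigned region) and endothelium (6 genes) had neither opened nor closed regions, which says little in lists this short.

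The closed regions of highest median rank were less distinct. The region at -12.3 kb from Nrip3 had fold enrichments of 11.6, 12.0, 11.5 and 7.80 in hi-77-/- empty libraries, and weaker deposited peaks of 6.31, 6.78 and 4.88 in 9aa-Ins replicates 1, 2 and 4. The region at -141 kb from Tet2, a DNA demethylation enzyme, had 11.6, 9.17, 6.78 and 10.8 in hi-77-/- empty libraries and 4.88 to 5.04 in 3 9aa-Ins libraries, and no deposited peak in a GATA2 or hi-77+/+ empty library. The others were near Akap6, Egfl8 and Cdh23. That of Egfl8 had a peak in all GATA2 and hi-77+/+ empty libraries, and the 9aa-Ins libraries had 5.49 to 7.57 there.

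**Figure D2:**
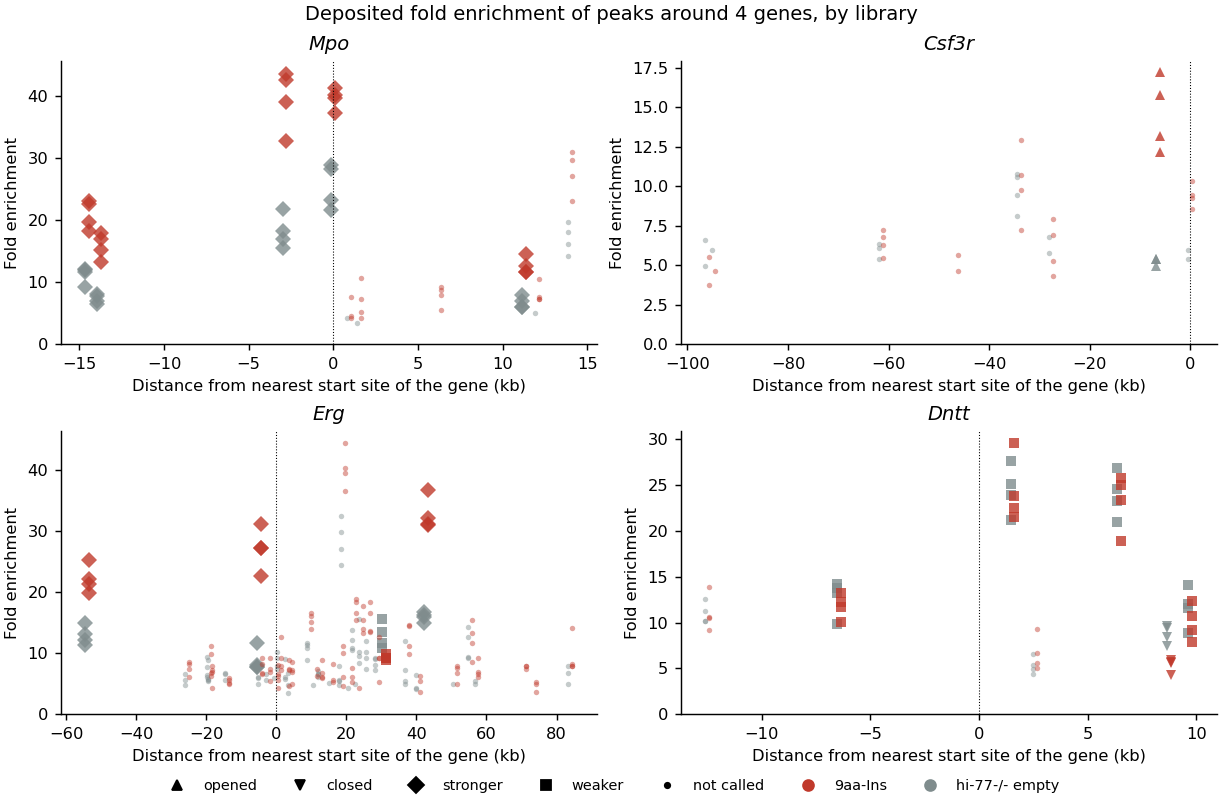
Fold enrichment of each deposited peak (vertical, unscaled) by its distance from the nearest TSS of the gene in kb (horizontal) around 4 genes, with 9aa-Ins libraries in red and hi-77-/- empty libraries in gray, and the marker showing the call of the region. At Erg the regions are measured from different TSSs, so their order on the axis is not their order on the chromosome. At Mpo 5 of 6 shared regions were stronger, at Csf3r 1 region was opened, at Erg 3 regions were stronger and 1 weaker, and at Dntt, where the unscaled values of the 2 groups overlap in the 4 weaker regions, 1 region was closed.

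Whether opened regions are also open in cells with GATA2 or with an intact enhancer was asked in the 8 libraries that did not choose them. The GATA2 libraries had peaks in 25.8%, 35.2%, 34.3% and 38.3% of the opened regions and the hi-77+/+ empty libraries in 14.2%, 11.5%, 12.2% and 9.34%, so that the groups did not overlap. The mean was 33.4% ± 5.36 (SD, n = 4) against 11.8% ± 2.00 (SD, n = 4), 21.6 points apart (exact permutation p = 0.0286, two-sided, which became 0.0571 after adjustment for 2 tests and did not pass). Without 9aa-Ins replicate 1 the shares were 31.0% ± 5.31 (SD, n = 4) and 10.7% ± 1.80 (SD, n = 4). When all deposited peaks were used the difference was 2.51 points (exact permutation p = 0.714), and it was 7.56 points when a peak had to cover 50% of the region (exact permutation p = 0.229). With 24000 peaks per library it was 23.6 points and with peaks narrower than 1 kb 19.7 points (exact permutation p = 0.0286 for each). For closed regions the shares were 22.7% ± 3.81 (SD, n = 4) and 22.4% ± 1.78 (SD, n = 4), a difference of 0.323 points (exact permutation p = 0.914).

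The opened regions were a mixture in this respect. Of the 1221, 178 (14.6%) had a peak in 4 of 4 GATA2 libraries, 534 (43.7%) in none, and 460 (37.7%) in no library of either other group. Only 39 had a peak in all hi-77+/+ empty libraries. These counts leave out peaks below the limit of the lists. With all deposited peaks, GATA2 libraries had one in 27.2% to 63.7% of the opened regions and hi-77+/+ empty libraries in 28.2% to 49.5%. The region at +46.9 kb from Gata3, a GATA factor of T cells, had fold enrichments of 8.20, 11.1, 11.9 and 11.0 with 9aa-Ins and 6.35, 7.26, 6.12 and 8.18 with GATA2, and no deposited peak in either empty group. An intronic region at +41.9 kb from Runx1, a master regulator of blood stem cell formation, had 12.6, 14.2, 13.9 and 10.4 with 9aa-Ins and 7.41, 13.2, 11.6 and 16.4 with GATA2. In hi-77-/- empty libraries it had weak peaks of 5.08 and 5.43 only.

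**Figure D3:**
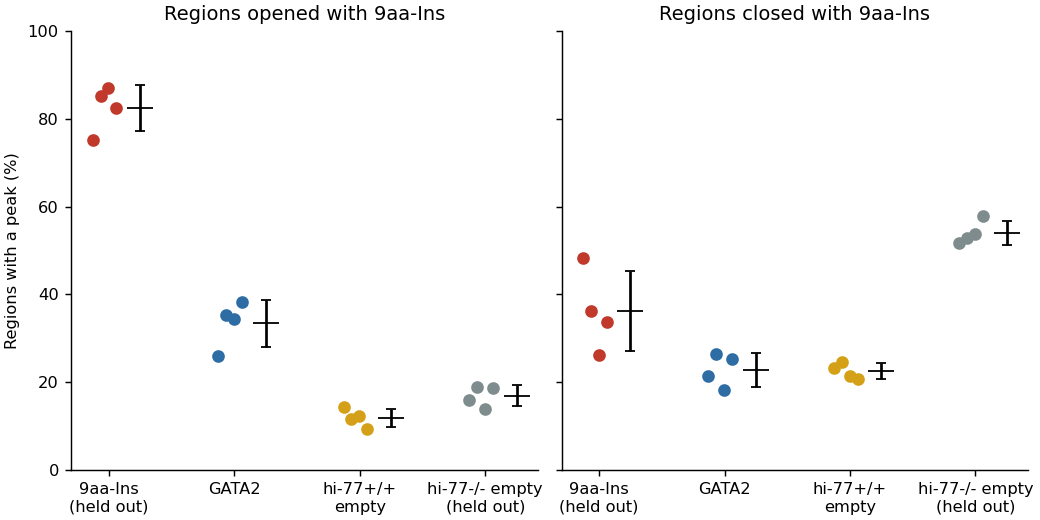
Share of the opened (left) and closed (right) regions with a peak in each library, in percent, with the mean and SD of each group of 4 as a bar beside the points. For 9aa-Ins and hi-77-/- empty each point is a library left out of the choice, and the GATA2 and hi-77+/+ empty libraries took no part in it. At opened regions GATA2 libraries lay at 25.8% to 38.3% and hi-77+/+ empty libraries at 9.34% to 14.2%, and at closed regions these groups overlapped. The lists reached less significant peaks in GATA2 than in hi-77+/+ empty libraries.

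Opened regions were rich in C/EBP motifs, while WGATAR was about as frequent in them as in other regions. Motifs were counted on both strands of 300-bp windows centered on the summits, for regions over 3 kb from a TSS. C/EBP (TTGCNNAA) matched 41.8% of 1086 opened windows against 16.8% of all 67638 such windows, 18.4% of those shared by the 8 libraries, and 10.4% of 135 closed windows. AP-1 (TGANTCA) matched 23.8%, 15.5%, 17.3% and 11.1% in the same order, and RUNX (TGTGGT) 40.8%, 34.1%, 38.3% and 37.0%. WGATAR matched 37.9% of opened, 40.5% of all, 34.8% of shared and 37.0% of closed windows. EBF (CCCNNGGGA) matched 2.49% of opened, 7.27% of all, 10.4% of shared and 25.2% of closed windows, and CTCF (AGNGGGCGC) 0.552% of opened and 3.01% of all. The median GC content was 46.7% in opened and 48.7% in all windows, and its part in these shares was not tested. Without 9aa-Ins replicate 1 the C/EBP share was 41.1% and the EBF share of closed windows 18%.

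WGATAR was unevenly spread among opened regions, by their state in the GATA2 libraries. It matched 72.2% of the 158 opened windows with a peak in 4 of 4 GATA2 libraries and 25.8% of the 476 with a peak in none. C/EBP matched 38.0% and 46.2%. An E-box (CANNTG) 6 to 14 bp before WGATAR, the kind of composite bound by TAL1 with GATA factors, matched 6.96% and 1.26%, against 3.19% of all windows. Among the 10 regions of highest rank, 6 held a C/EBP match, 2 an AP-1 match and 1 WGATAR. A match is a string of letters and does not show that a factor was bound.

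**Figure D4:**
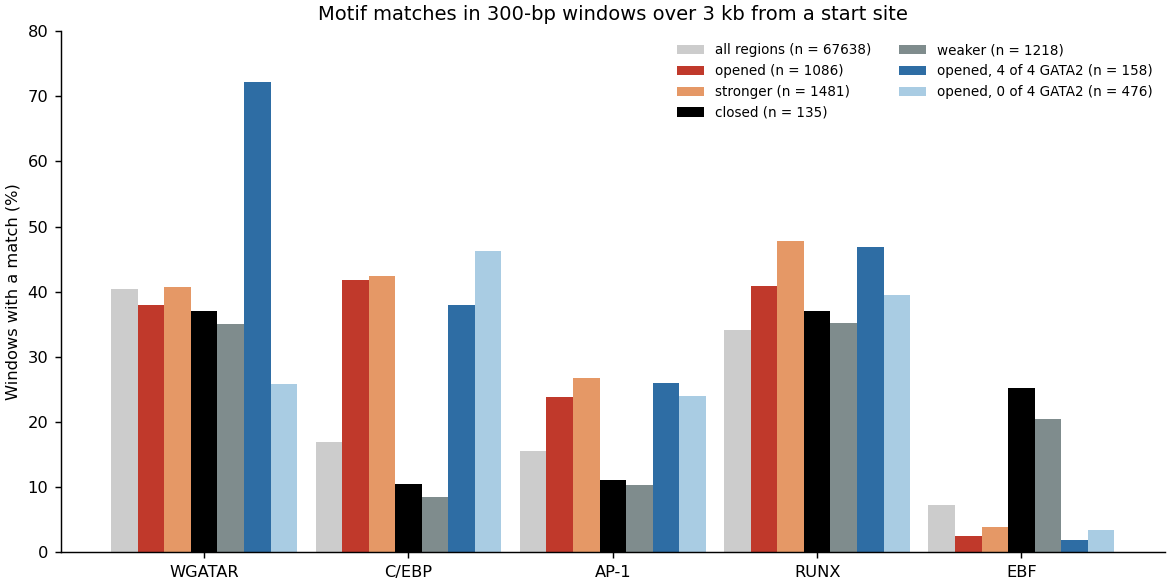
Share of 300-bp windows over 3 kb from a TSS that held each motif, in percent, for all regions and for the sets named in the key, with the number of windows in brackets. C/EBP matched 41.8% of opened and 42.4% of stronger windows against 16.8% of all. EBF matched 25.2% of closed and 20.4% of weaker windows against 7.27% of all. Shared windows, which are not drawn, had C/EBP in 18.4%, EBF in 10.4% and WGATAR in 34.8%. WGATAR was highest, at 72.2%, in opened regions with a peak in 4 of 4 GATA2 libraries.

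Peaks present in all 8 libraries changed in height as well. In the 29875 shared regions the deposited fold enrichment was higher overall with 9aa-Ins. Its median over shared regions was 18.3 to 20.8 in the 9aa-Ins and 14.2 to 15.6 in the hi-77-/- empty libraries, and the median log2 difference was 0.34. Libraries were therefore brought to the same distribution by quantile normalization, and changes are relative to this shift. By limma on log2 values, with Benjamini-Hochberg adjusted p under 0.05, 1829 regions were stronger with 9aa-Ins (6.12% of shared regions) and 1430 were weaker (4.79%). The split depended on the scaling: 56.1% of the changed regions were stronger here, 41.1% with each library centered on its median (1569 stronger and 2244 weaker), and 99.4% with no scaling (17317 and 98). Changes within shared regions were small. The median fold was 1.46 in stronger and 0.719 in weaker regions, 90 regions were at least 2-fold stronger, and 3 fell below a fold of 0.5. A region whose peak was missing from the list of even 1 of the 8 libraries was left out of this comparison. Larger changes could thus be missed, and the part of this rule in the small folds was not tested. Regions with a peak in only some libraries, other than opened and closed ones, were compared neither way. They include 990 found in 4 9aa-Ins and 1 hi-77-/- empty libraries, and 366 in the reverse case. Without 9aa-Ins replicate 1, 1769 regions were stronger, 1571 of them shared with the full comparison, and 1227 weaker, 1051 of them shared. Without 9aa-Ins replicate 3 the count of stronger regions was 1202.

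Of the shared regions 8.45% of those over 3 kb from a TSS were stronger and 6.95% weaker, against 2.82% and 1.72% within 3 kb. Of the 5966 shared regions within 100 kb of an opened region 7.89% were stronger and 3.77% weaker, and their median log2 difference was 0.00. Motifs of the stronger distal regions resembled those of the opened ones, with C/EBP in 42.4%, AP-1 in 26.7%, RUNX in 47.7% and WGATAR in 40.6%. All shared distal regions had 18.4%, 17.3%, 38.3% and 34.8% in the same order. Weaker distal regions had C/EBP in 8.46% and EBF in 20.4%, against 18.4% and 10.4% of all shared distal regions. Without 9aa-Ins replicate 1 the values of the weaker regions were 7.77% and 20.2%. In the libraries outside the comparison, stronger regions had a peak in 92.2% ± 3.14 (SD, n = 4) of cases with GATA2 and 74.1% ± 4.20 (SD, n = 4) for hi-77+/+ empty. For all shared regions the shares were 89.9% ± 1.51 and 84.7% ± 1.95 (SD, n = 4). Weaker regions had a peak in 78.0% ± 1.29 and 78.4% ± 2.28 (SD, n = 4) of cases. Of the weaker regions 13.6% had a peak in no GATA2 library, against 4.06% of all shared regions. For hi-77+/+ empty libraries it was 13.7% against 8.12%. These shares were not tested, and the lists reached less significant peaks in GATA2 than in hi-77+/+ empty libraries.

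The stronger regions with the largest folds were near Pnpla1, Sqor, Hif1a, Foxb1, Hcrtr1, Acod1, Erg, Kif2a, Rtl5 and Slc38a2, with folds of 2.37 to 2.55. The region at -1.69 kb from Pnpla1, a lipid hydrolase family member, had normalized fold enrichments of 26.1, 29.0, 23.7 and 29.6 with 9aa-Ins and 9.15, 15.1, 8.67 and 10.6 in hi-77-/- empty libraries, a log2 difference of 1.35 ± 0.14 (SE, limma adjusted p = 8.28e-11). The groups did not overlap. At -145 kb from Hif1a, the oxygen-regulated transcription factor, inside Prkch, the values were 24.9, 24.3, 27.3 and 26.7 against 11.8, 10.1, 8.67 and 11.2. It had a peak in 4 of 4 GATA2 and 0 of 4 hi-77+/+ empty libraries. At -17.4 kb from Acod1, the enzyme that makes itaconate in activated macrophages, they were 16.4, 18.7, 21.3 and 23.3 against 7.28, 7.14, 9.43 and 9.29, with the same pattern in the other groups. Of these 10 regions 6 held a C/EBP match and 4 WGATAR.

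The weaker regions with the largest changes kept their call without scaling. At +15.5 kb from Gfi1b, a repressor needed for erythroid and megakaryocytic cells, normalized fold enrichments were 6.19, 7.70, 7.70 and 8.49 with 9aa-Ins and 16.01, 15.1, 16.4 and 17.9 in hi-77-/- empty libraries. The log2 difference was -1.13 ± 0.17 (SE, limma adjusted p = 1.71e-06), and -0.78 without scaling. No GATA2 or hi-77+/+ empty library had a peak there among the 49000. The same held for an intronic region of Cdh23, with a fold of 0.525. Others were near B3galnt2, Shb, Nkpd1, Nrbf2, Kcnh5, Bag1 and Vsir, with folds of 0.474 to 0.519. Repeats made up 61.3% to 80.3% of the windows near B3galnt2, Nrbf2 and Kcnh5. Of the 10 regions with the largest changes down, 3 held an EBF match and none a C/EBP match.

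**Figure D5:**
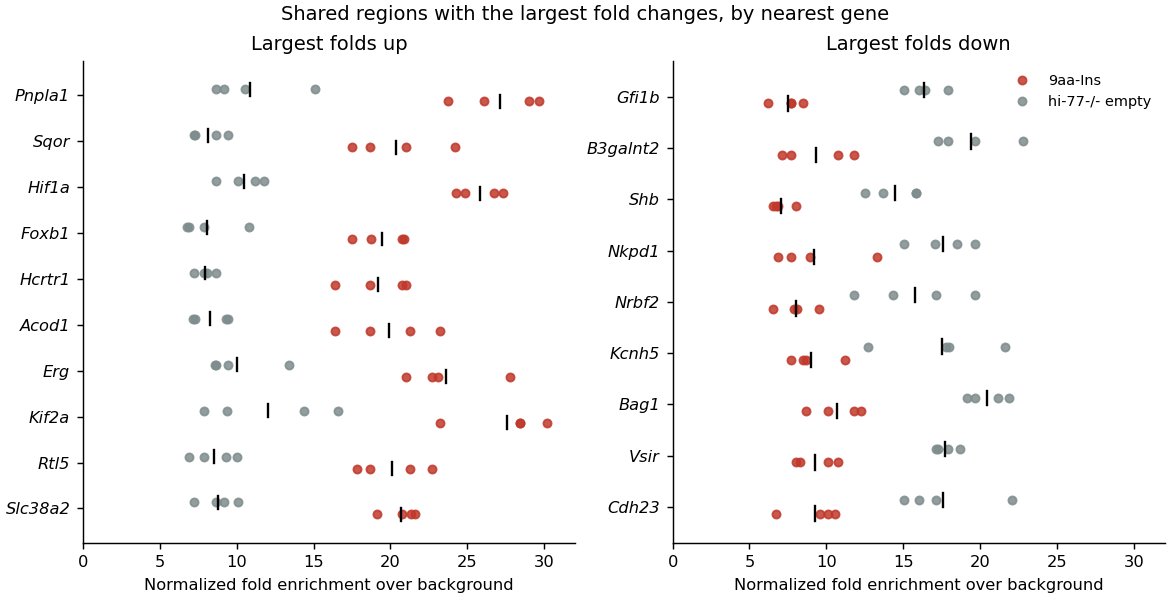
Normalized fold enrichment (horizontal, a ratio without unit) in each library for shared regions with the largest folds up (left) and down (right), named by the nearest gene, with 9aa-Ins in red, hi-77-/- empty in gray and group means as black bars. For Pnpla1 the 9aa-Ins libraries lie at 23.7 to 29.6 and hi-77-/- empty libraries at 8.67 to 15.1, and for Gfi1b at 6.19 to 8.49 and 15.1 to 17.9.

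Among shared regions of neutrophil genes, those that passed the test were all stronger. Over all protein-coding genes with a shared region, 1374 of 12763 (10.8%) had a stronger and 1017 (7.97%) a weaker one. Of 13 neutrophil genes 6 had a stronger region, none a weaker one and 7 no called region, and 11 of their 28 shared regions were stronger, with a median log2 difference of 0.32 over the 28 against -0.01 over the shared regions of all genes. All 11 were also stronger with median centering and without scaling, and without 9aa-Ins replicate 1 the count was again 11. Mpo, myeloperoxidase, accounted for 5 of them. At -2.88 kb from Mpo the normalized values were 27.9, 38.5, 39.3 and 36.7 against 25.2, 20.3, 20.5 and 17.1, a fold of 1.71 (limma adjusted p = 4.29e-08). Regions at the TSSs of Ctsg (cathepsin G, fold 1.53) and Camp (cathelicidin, fold 1.87), at -1.40 kb from Elane (neutrophil elastase, fold 1.39), at -2.46 kb from Cxcr2 (fold 1.76) and at +4.97 kb from Cebpe (fold 1.42) rose too.

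Of 6 C/EBP factor genes 3 had a stronger region and none a weaker one. By region it was 3 of 27 (11.1%), against 5.85% of the shared regions of all genes. At +20.95 kb from Cebpb normalized values were 18.7, 16.01, 17.2 and 21.01 against 9.15, 14.3, 8.67 and 10.6 (fold 1.73), and the region near Cebpd had a fold of 1.29. Of 12 AP-1 and ATF genes 3 had a stronger region and none a weaker one. By region it was 4 of 60 (6.67%), near the share over all genes. At +15.3 kb from Fos the values were 12.7, 19.7, 16.6 and 16.6 against 7.28, 8.67, 6.92 and 9.29, a fold of 2.03 (limma adjusted p = 1.41e-05). Regions of Jun (fold 1.21) and Fosb (1.17 and 1.55) rose less, and of these the region of Jun and the first of Fosb lost their call with median centering. Mast cell, basophil and eosinophil genes had stronger regions at 4 of 9 (Hdc, Mcpt8, Prg2 and Ccr3, folds 1.41 to 1.71) and no weaker one, and monocyte and dendritic cell genes at 3 of 15 (Csf1r, Cx3cr1 and Mef2c). By region these were 4 of 15 (26.7%) and 3 of 53 (5.66%), the second near the share over all genes. In the innate sensing list 3 of 18 genes had stronger regions, among them Tlr2 (folds 1.90 and 1.91), Nlrp3 (1.47), an inflammasome sensor, and Nfkbia. The stronger regions were 5 of the 49 shared regions of the list (10.2%). At +3.19 kb from Nfkbia the values were 23.3, 27.2, 26.1 and 26.7 against 11.8, 11.1, 9.43 and 13.4, a fold of 2.27 (limma adjusted p = 1.22e-09). Nfkbia also had the single weaker region of the list, at +44.9 kb with a fold of 0.803, which changed sign without scaling.

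Progenitor factors changed in both directions, often within a gene. Of 18 genes 8 had a stronger and 5 (Lmo2, Runx1, Erg, Gfi1 and Gfi1b) a weaker region, of which those of Erg and Gfi1b kept the call without scaling. Of their 114 shared regions 13 were stronger (11.4%) and 6 weaker (5.26%), against 5.85% and 4.24% over all genes. Erg, an ETS factor of stem cells, had stronger regions at -54.0, -5.05 and +42.6 kb, with folds of 1.32, 2.39 and 1.58. These distances are from different TSSs of Erg, and the region at -5.05 kb lies in an intron of the gene. Its intronic region at +30.7 kb, the EBF sequence of which is shown above, was weaker, with 7.14, 8.08, 8.81 and 8.96 against 13.4, 15.1, 12.7 and 17.1 (fold 0.567, limma adjusted p = 0.000516). Lmo2, a bridging protein of TAL1 and GATA factors, had a stronger region at -10.7 kb with a fold of 2.00 and a weaker one at -20.9 kb with a fold of 0.594. The weaker call at the Lmo2 TSS (log2 difference -0.34) turned to 0.05 without scaling. Within Myb, a progenitor transcription factor, a region at +13.9 kb had 19.1, 18, 20.2 and 20.4 against 10.0, 7.87, 10.2 and 9.29, a fold of 2.09 (limma adjusted p = 9.55e-07). Flt3 (fold 1.47) and Ikzf1 (1.34) had a stronger region each. The stronger region of Gata2 overlapped a coding exon, which the vector also carries.

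Lymphoid, erythroid and megakaryocyte genes had called regions too, with weaker ones in B lymphoid and megakaryocyte genes and no stronger ones. Of 12 B lymphoid genes none had a stronger region and 2, Dntt and Blnk, had weaker ones, in 5 of 30 shared regions (16.7%, against 4.24% over all genes), none of which was called without scaling. Of the 5 shared regions of Dntt 4 were weaker, with folds of 0.673 to 0.769. Without scaling their log2 differences were -0.21 to -0.01, and each of the 4 lost it when some single library was left out. Without 9aa-Ins replicate 1, 3 regions of the list were weaker and 1 was stronger. In T and NK genes Lck had a stronger and Tcf7 a weaker region. Of 8 erythroid genes Nfe2 and Tfrc had stronger regions and Ank1 a weaker one (fold 0.573), of 7 megakaryocyte genes Gp9 and Thbs1 had weaker ones, and of 10 interferon response genes Ifit2 had a weaker one. Of these weaker calls, only that of Ank1 held without scaling. In cytokine receptors and signaling, 5 of 24 genes had stronger regions (Il1r1, Il17ra, Jak1, Jak2 and Socs1) and 6 weaker ones (Csf2ra, Il6ra, Il1r2, Il10ra, Socs1 and Socs3). Of their 89 shared regions 5 were stronger (5.62%) and 8 weaker (8.99%), against 5.85% and 4.24% over all genes. Without scaling the weaker regions of Il6ra and Socs3 changed sign and the other 4 genes kept no weaker call, and with median centering Il1r1 and Jak1 lost their stronger call (limma adjusted p = 0.0692 and 0.0523). Liver (4 genes) and endothelial (3 genes) markers had shared regions but no stronger or weaker one. Leaving out the scaling left the overall shift toward 9aa-Ins in the values, which lowers the number of weaker calls by its construction: of the 34 weaker regions named or belonging to a list 12 kept their call, 17 lost it and 5 changed sign, and all 59 stronger ones kept it. With median centering all 34 weaker regions and 54 of the 59 stronger ones kept their call.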

How the data were processed

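ATAC-seq libraries were analysed from the deposited peak lists, 1 per library. Per the labels and the study's methods, the authors trimmed reads (Trim Galore 0.4.1), aligned them to mm10 (Bowtie2 2.2.5), removed duplicates (Picard 2.26.0), shifted read ends for the transposase and called peaks per library with MACS v2.0, without a local background for the hi-77-/- groups. Fold enrichment as deposited is the ratio of summit pileup to background. All its values (100%) were multiples of 1 step per library, to within 0.01 of a step, so the background was constant within a library. Significance was deposited as -log10 of p and of q, next to an integer score made from q and the offset of the summit in bp. Read counts were not used, so read depth is unknown and no counting interval is given. Groups come from the labels.

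Per library the 49000 peaks of highest -log10 p (ties by fold enrichment, then chromosome order and position) on chromosomes 1 to 19 and X were kept and merged when they overlapped by 1 bp. Opened and closed are presence calls with no test per region. In shared regions the highest fold enrichment per library was log2 transformed with no pseudocount, quantile normalized and tested with limma 3.58.1 (R 4.3.3; trend and robust variance, 8 libraries, no covariate, Benjamini-Hochberg over all shared regions). A constant background does not remove differences in signal to noise between libraries, so heights are relative. The script was tested on simulated data. Where each library gave a single number, groups were compared by exact permutation (two-sided). Python 3.11.15 with pandas 2.3.3 and numpy 2.4.6 was used, and matplotlib 3.10.9 for plots.

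Genes and TSSs were taken from protein-coding genes of GENCODE release M21, and a region was assigned to the nearest TSS within 100 kb. Motif windows were 300 bp. The regions named were the 10 opened and 5 closed of highest median rank, 5 opened near a TSS, the 10 largest folds in each direction, regions of listed genes, genes with at least 3 opened regions, and the 100-kb windows with most. A single weaker region is counted but not reported here. Loci and genes singled out within these were picked after their values were seen. The gene lists cover progenitor factors, erythroid, megakaryocyte, mast cell, basophil and eosinophil, neutrophil, monocyte and dendritic, B lymphoid, T and NK, cytokine receptors and signaling, innate sensing, interferon response, AP-1 and ATF, C/EBP, liver and endothelial genes. The regions, lists and tests were chosen with earlier results of these data known, so they are not independent evidence. The same replicate numbers did not pair libraries (correlations of deviations from -0.0341 to 0.0344), so no block was used. Alternatives were other list lengths, overlaps and merges, peaks under 1 kb, other scalings, -log10 p in place of fold enrichment, a replicate block, all 16 libraries in 1 fit and leaving out each library.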

Additional observations from a re-analysis of the deposited data

Results flagged for a closer look

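Among 87 sets of 4 libraries examined, 4 held a library whose gap to the nearest other library was large for the range of the set, and chance alone gives about 1 in 20. In 9aa-Ins replicate 1, 11.6% of the regions specific to hi-77+/+ empty libraries had a peak, against 2.80% to 3.59% in the other 9aa-Ins libraries. In 9aa-Ins replicate 4, peaks covered 89.9% of the bases of the Gata2 coding exons, against 98.8% to 99.6% in the other 9aa-Ins libraries. At the opened region in Dlst, 9aa-Ins replicate 2 had a fold enrichment of 27.1 and the other 9aa-Ins libraries 21.1 to 22.1. At the closed region near Nrip3, hi-77-/- empty replicate 4 had a fold enrichment of 7.80 and the other hi-77-/- empty libraries 11.5 to 12.0.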

How the results depend on the processing

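Opened regions outnumbered closed ones under every list length, overlap and merge tried. With 24000 peaks per library 598 regions were opened (81.5% of changed regions), 13.7% of them within 3 kb of a TSS and 44.8% with a C/EBP match. With all deposited peaks 3410 were opened and 17 closed (99.5% opened), with C/EBP in 36.1% of opened and EBF in 58.8% of closed regions. With peaks narrower than 1 kb 241 were closed (85.7% opened, EBF in 13.3% of closed). When a peak had to cover 50% of a region 2400 were opened and 100 closed (96.0% opened), 13.1% near a TSS and 38.5% with C/EBP. When absence meant no deposited peak at all 441 were opened and 1 closed (99.8% opened), C/EBP was in 46.3% and EBF in 0% of closed regions. Motif shares here are over all regions of a set, where C/EBP was in 41.9% of opened regions. The C/EBP and EBF shares and the fit with no scaling were added after seeing the data.

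The difference between GATA2 and hi-77+/+ empty libraries at opened regions was 2.51 points with all deposited peaks and 7.56 with 50% cover, neither of which passed the threshold. At closed regions it had no stable sign, with -3.68 points at 24000 peaks, -13.2 with all deposited peaks, 0 when absence meant no deposited peak, and -1.09 with regions merged over 8 libraries. The difference in the number of peaks was 12561 at a -log10 q of at least 5.

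Stronger and weaker shared regions numbered 17317 and 98 with no scaling, 845 and 811 with 24000 peaks, 513 and 402 with all 16 libraries in 1 fit and 802 and 809 among regions above the median height. Weaker regions numbered 2244 with median centering. Without scaling the log2 difference changed sign at the Lmo2 TSS (0.0525), at Il6ra (0.0384), at both regions of Socs3 (0.00106 and 0.0170) and at +44.9 kb from Nfkbia (0.0444). Over all alternatives, the 93 named shared regions kept direction and call in 1128 instances, lost the call in 183 and changed sign in those 5, and the 79 named opened or closed regions kept their status in 897 instances and not in 171.

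Leaving out each library in turn gave 1401 to 1622 opened and 210 to 300 closed regions, a call that then asks for 1 library less, 82.9% to 87.0% opened, 11.1% to 12.5% near a TSS, WGATAR in 36.9% to 39.1%, C/EBP in 39.5% to 41.5% and EBF in 18.7% to 23.3% of closed regions. The count of closed regions was over 1.5 times higher without any library other than 9aa-Ins replicate 3. The difference at opened regions was 20.0 to 24.2 points, at closed regions -0.914 to 1.88 points, with signs turned without GATA2 replicate 2 (-0.914) or 4 (-0.484) or hi-77+/+ empty replicate 3 (-0.0538) or 4 (-0.269). The difference in peaks was 17691 to 30150, stronger regions numbered 1202 to 1821 and weaker ones 1013 to 1295.

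With the replicate number as a block, limma gave 1804 stronger and 1406 weaker regions. A sign-flip test over the 4 numbered pairs, which allows no p below 0.125, kept the 21.6 points at opened regions with an exact p = 0.125.

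Read totals were not used, so a peak missing from a list cannot be told from one missed at lower depth. The lists end at higher fold enrichments in 9aa-Ins than in hi-77-/- empty libraries, which bears on closed regions most. They reach less significant peaks in GATA2 than in hi-77+/+ empty libraries, which bears on the shares of these 2 groups. Differences in peak height are relative to the scaling chosen.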
